A study of Mus musculus with 12 samples.

Results

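The proteasome genes of mouse liver were taken as every gene of the filtered count table whose symbol begins with Psma, Psmb, Psmc, Psmd, Psme, Psmf or Psmg followed by a digit. This rule gave 47 of the 11968 genes. Subunits with other symbols, such as Adrm1 of the 19S particle, fall outside the rule and are read with the partners of the proteasome. They were 7 genes of the alpha ring and 7 of the beta ring of the 20S core, 3 immunoproteasome genes, 6 ATPases and 11 non-ATPase subunits of the 19S particle, 3 chaperones of 19S assembly, 6 activators or inhibitors and 4 chaperones of 20S assembly. Another 7 of the 54 symbols that match were below the filter and were not tested. Of these, Psma8 had 23 to 72 reads in a liver, Psmb11 had 0 reads in all 12 livers, Psmc3ip (whose product is no proteasome subunit) had 4 to 22, and the 4 pseudogenes had at most 3.

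The livers came from C57BL/6J mice of both sexes, 3 per group, which carried no introduced allele and were 8 to 10 weeks old when the diets began. Control females and males ate chow, and the other females and males ate the same chow with simvastatin, an inhibitor of the rate-limiting enzyme of cholesterol synthesis, for 4 weeks. The dose was 0.1 g per kg, which the labels tie to body weight and the methods to food. The question asked of these genes was whether their RNA differed between statin and chow within each sex, with the immunoproteasome genes apart.

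The proteasome breaks down proteins that carry ubiquitin chains. Its 20S core is a barrel in which alpha rings form the gate and beta rings hold the cutting sites, and the 19S particle on its ends recognises ubiquitin, unfolds the protein with a ring of ATPases and feeds it into the core. In cells exposed to interferon, 3 catalytic beta subunits are exchanged for Psmb8, Psmb9 and Psmb10, which changes the peptides available for antigen presentation. The constitutive genes are known to be transcribed together under Nfe2l1, a factor that binds antioxidant response elements when proteasome capacity falls short.

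Antioxidant response elements share the letters TGANNNNGC, and 4 upstream sequences are shown because they hold such letters close to members described here. They are the members with the smallest p in females that held the letters outside exons in the RefSeq window (250 bases before the gene's start, GRCm38.p6), with that start within 100 bases of an annotated coding transcript start. Of each window 150 bases are printed, or 206 for Psmd12, up to the RefSeq start or to the first exon base before it. Capitals mark the letters on either strand, and each sequence reads 5′ to 3′ along the gene. The letters began 247 bases before the RefSeq start of Psmd12, 31 before that of Psmd9, 47 before that of Psmb5 and 9 before that of Psmb6. The printed stretches were Psmd12 at chr11:107479278-107479483 (plus strand), Psmd9 at chr5:123228040-123228189 (plus), Psmb5 at chr14:54618023-54618172 (minus) and Psmb6 at chr11:70525207-70525356 (plus).
Psmd12: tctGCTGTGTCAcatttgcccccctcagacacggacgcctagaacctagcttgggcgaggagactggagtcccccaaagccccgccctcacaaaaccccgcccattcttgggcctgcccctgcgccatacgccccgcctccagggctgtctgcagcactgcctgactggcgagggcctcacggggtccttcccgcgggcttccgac
Psmd9: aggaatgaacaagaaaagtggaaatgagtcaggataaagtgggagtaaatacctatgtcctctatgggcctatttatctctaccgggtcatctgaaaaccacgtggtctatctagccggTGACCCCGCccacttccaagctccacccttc
Psmb5: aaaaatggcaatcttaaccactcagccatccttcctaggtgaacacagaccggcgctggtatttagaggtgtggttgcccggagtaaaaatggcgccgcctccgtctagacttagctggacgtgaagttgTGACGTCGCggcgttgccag
Psmb6: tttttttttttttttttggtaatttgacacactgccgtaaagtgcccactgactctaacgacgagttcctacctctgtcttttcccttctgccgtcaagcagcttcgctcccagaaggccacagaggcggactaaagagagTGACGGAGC
A match is a description and not a shown binding site. The letters TGANNNNGC stood on one strand or the other in 15 of the 40 members with a window (37.5%) and in 38.7% of 27025 genes. CCAAT, the letters of another common promoter element, stood in 13 of the 40 (32.5%) and in 37.5% of all genes. Both shares lay below those of all genes. There was no window for Psmb1, Psmb2, Psmb7, Psmc3, Psmd3, Psmd7 and Psmg2.

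Libraries held 46066381 to 60419223 reads on genes, and the members took 0.225% to 0.385% of them. No pair of libraries agreed within sampling noise. All 7 hepatocyte markers, among them albumin, were high in every liver, and they summed to 86096 to 152536 CPM (reads relative to the library's total). This was whole liver, so fewer cells of a type and less RNA per cell cannot be told apart. One measure of transcript length separated libraries within groups, and its source was not tested. The median deviation of 1099 genes with transcripts under 1000 nt minus that of 2963 genes with transcripts over 4000 nt ran from −0.48 (log2) in female statin 2 and in male statin 1 to 0.40 in male statin 3 and 0.43 in female statin 1. Member transcripts had a median length of 1382 nt, against 2651 nt over the filtered table.

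Levels were compared between genes as mean CPM per kb of transcript, with CPM scaled by the trimmed mean of M-values (TMM). The core was the most abundant class. Alpha ring genes had a median of 74.9 CPM per kb and constitutive beta ring genes 78.5, against 6.17 over all genes. The highest member was Psmb6, a caspase-like catalytic subunit, at 143 CPM per kb, and the highest alpha gene was Psma6 at 127. The 19S ATPases had a median of 45.5 and the non-ATPases 41.8. Immunoproteasome genes lay lower, with Psmb10 at 27.5, Psmb8 at 20.9 and Psmb9 at 15.3. Chaperones of 20S assembly had a median of 9.64, and the lowest member was Psme2b at 1.06. Psme2b is a copy of Psme2, and how the counting treated reads that fit both is not given in the sources used here.

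**Figure D1:**
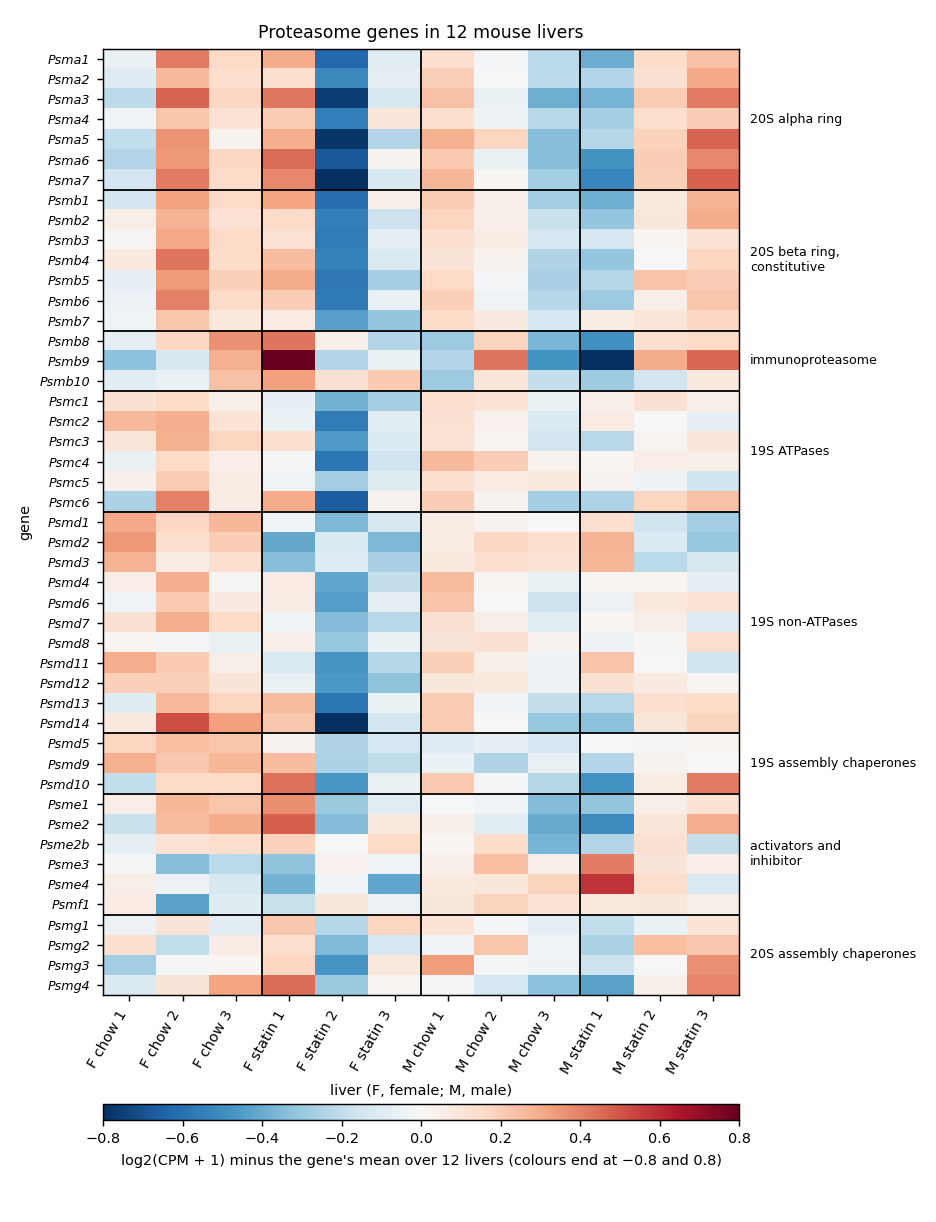
The heat map shows each of the 47 genes (rows, by class) in each of 12 livers (columns), as log2(CPM + 1) minus the gene's mean over the 12 livers, red above and blue below. Female statin 2 holds the lowest value of 34 genes, among them all 14 of the constitutive 20S core.

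In females, the fitted level of all 17 members in the 19S particle was lower on statin than on chow. Their median log2 difference was −0.34, although 0 of them passed an adjusted p of 0.05. The 11 members with the smallest p belonged to the particle or to its chaperones. The fitted level was lower for all 14 constitutive core genes too, with a median of −0.27, while the median of all genes was 0.01. None of the 47 members passed an adjusted p of 0.05 in edgeR's quasi-likelihood test, in which 12 genes of all tested did (0.0836% higher and 0.0167% lower). The lowest adjusted p was 0.187, for Psmd12. At an unadjusted p under 0.05, 11 members were lower and 0 higher, against 4.56% of all genes lower and 5.93% higher. The 3 livers of each group did not overlap for 10 members, all lower on statin, against 5.97% of all genes lower and 6.03% higher. These were 9 of the 17 subunits of the 19S particle and 1 of its 3 chaperones. DESeq2 called 4 of the members lower (Psmd12, Psmd7, Psmd2 and Psmd5, with adjusted p of 0.0186, 0.0374, 0.0476 and 0.0226), against 0.936% of all genes lower and 1.32% higher, and limma-voom called 0. Markers of other cells were read in the same comparison. All 5 stellate cell markers were lower, with a median of −0.37 and 1 (Des) at an unadjusted p under 0.05, and they summed to 273 to 340 CPM in chow females and 197 to 290 CPM in statin females. Of the 7 hepatocyte markers 4 were higher, 2 of them (Cyp2e1 at 0.72 and Apoa1 at 0.46) at an unadjusted p under 0.05. The other 3 were lower, with Cps1 lowest at −0.54, and the median of the list was 0.09. The 7 markers summed to 102475 to 130403 CPM on chow and 122027 to 152536 CPM on statin. Most of that was Alb (albumin), with TMM-scaled means of 90906 and 117830 CPM. All 7 Kupffer cell markers were higher, with a median of 0.12, and of the 5 endothelial markers 2 were higher and 3 lower. In these lists 0 markers had an unadjusted p under 0.05. No stellate, hepatocyte, Kupffer cell or endothelial marker was at 0 in a liver, and 0 passed an adjusted p of 0.05 in edgeR. Their part in the members' values was not tested.

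Among the lid subunits, Psmd12 (chr11:107479484-107504362), a scaffold of the lid, measured 69.5, 69.5 and 65.4 CPM in chow females and 58.6, 43.8 and 48.3 CPM in statin females. All statin livers lay below all chow livers, and also below the male livers, which ran from 59.0 to 66.1 CPM. The means were 68.1 ± 2.37 and 50.2 ± 7.56 CPM (SD, n = 3), a log2 difference of −0.44 (SE 0.12, edgeR adjusted p = 0.187). Psmd7 (chr8:107580381-107588464), the partner of the deubiquitinase Psmd14, measured 62.7, 70.5 and 64.2 CPM on chow and 56.1, 45.1 and 49.2 CPM on statin. Again the groups were separate, with a log2 difference of −0.39 (SE 0.12, edgeR adjusted p = 0.221). Psmd11 (chr11:80428615-80473248), which clamps the lid to the core, measured 101, 95.2 and 84.7 CPM on chow and 75.5, 58.8 and 69.9 CPM on statin, a log2 difference of −0.46 (SE 0.14). Psmd3, another lid subunit, differed by −0.39 (SE 0.14), also without overlap. The deubiquitinase Psmd14 measured 52.0, 70.9 and 62.0 CPM in chow females and 57.4, 26.9 and 44.4 CPM in statin females. It had the lowest log2 difference of any member, −0.52, but with an SE of 0.25 and with overlap.

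The large base scaffolds and several ATPases were also lower in statin females without overlap. Psmd2 (chr16:20651652-20663414), which docks ubiquitin shuttle proteins, measured 195, 168 and 176 CPM in chow females and 115, 142 and 119 CPM in statin females. Here female statin 2, the lowest liver for most members, was the highest of the statin livers. The log2 difference was −0.52 (SE 0.15, edgeR adjusted p = 0.223), or 30.2% lower. Its fellow scaffold Psmd1 (chr1:86064387-86139151) measured 111, 101 and 108 CPM against 87.6, 69.8 and 82.0 CPM, a log2 difference of −0.42 (SE 0.13). Of the ATPases, which unfold the substrate, Psmc2 (chr5:21785283-21803787) measured 80.5, 82.3 and 72.5 CPM on chow and 64.8, 45.3 and 63.3 CPM on statin, and Psmc1 97.4, 99.1 and 92.3 CPM and 85.3, 68.7 and 74.4 CPM. Their log2 differences were −0.44 (SE 0.14) and −0.34 (SE 0.11), and neither overlapped. Psmc5 differed by −0.24 (SE 0.11) without overlap, and Psmc3, Psmc4 and Psmc6 differed by −0.31, −0.29 and −0.15 with overlap.

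**Figure D2:**
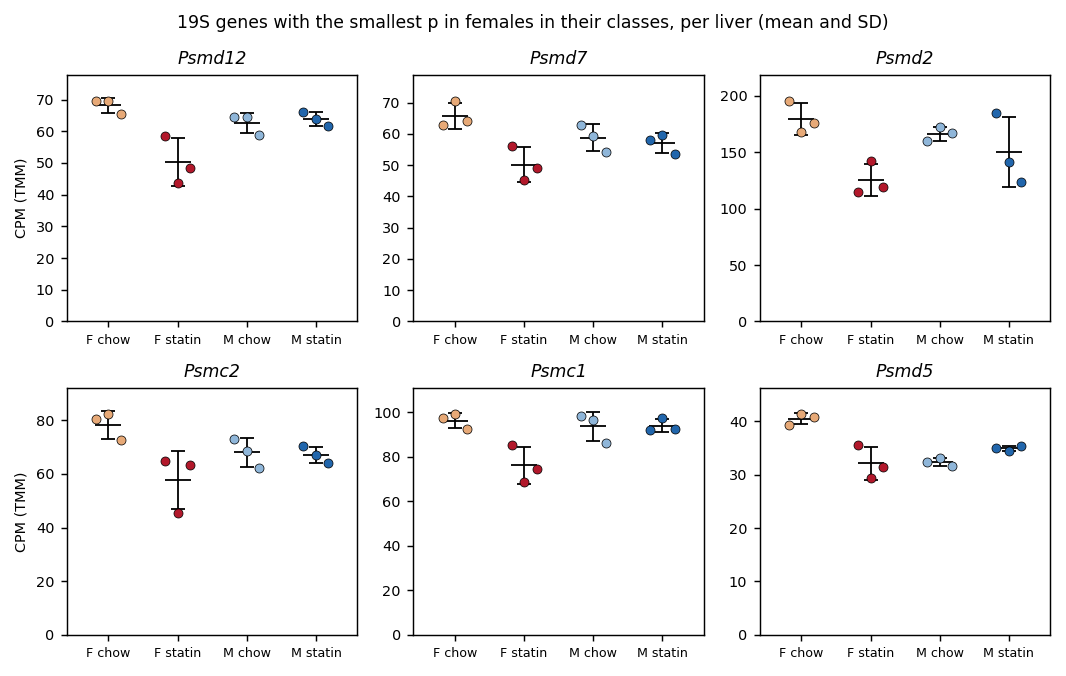
Each panel plots TMM-scaled CPM of 1 gene per liver (points) with the group mean and SD (bars), for 3 non-ATPase subunits, 2 ATPases and the chaperone Psmd5. Female statin livers sit below female chow livers in every panel, while male statin and chow livers overlap except for Psmd5.

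Chaperones that build the 19S base were split. Psmd5, which holds the ATPases before assembly, measured 39.4, 41.3 and 40.8 CPM in chow females and 35.5, 29.4 and 31.5 CPM in statin females, a log2 difference of −0.34 (SE 0.10, edgeR adjusted p = 0.226). Psmd9 measured 60.5, 57.8 and 59.9 CPM on chow and 59.0, 41.4 and 42.9 CPM on statin, so female statin 1 stood among the chow livers. Its log2 difference was −0.31 (SE 0.14, edgeR adjusted p = 0.467). Psmd9 overlaps Hpd, an abundant liver gene on the other strand, and whether the counting used strand is not given in the sources used here. Psmd10 differed by −0.03 (SE 0.27).

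The core genes were lower in the mean but not separate. Constitutive beta ring genes differed by −0.33 (Psmb4) to −0.16 (Psmb1) and alpha ring genes by −0.28 (Psma1) to −0.11 (Psma6), and none of these 14 reached an unadjusted p of 0.05. Psmb5, the chymotrypsin-like subunit, measured 37.1, 49.3 and 44.5 CPM on chow and 47.9, 25.8 and 31.9 CPM on statin, a log2 difference of −0.31 (SE 0.22). Psmb6 measured 109, 149 and 125 CPM against 129, 75.6 and 108 CPM, a difference of −0.29 (SE 0.21). Psmb7, the trypsin-like subunit, measured 103, 124 and 112 CPM against 111, 78.0 and 85.0 CPM, a difference of −0.31 (SE 0.14, edgeR adjusted p = 0.483). In each, female statin 1 was within the chow range and female statin 2 was the lowest. Without female statin 2 the median of the core was −0.07 and that of the 19S particle −0.27, and 30 rather than 40 members were lower. Without female chow 2 the core median was −0.15. Without female statin 1 the core median was −0.48, and 22 members were lower at an unadjusted p under 0.05, against 6.01% of all genes lower and 7.98% higher in that fit (lowest edgeR adjusted p = 0.0501).

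Activators and core chaperones had no common direction in females. Psme4, a large activator cap, differed by −0.22 (SE 0.17), Psme1 and Psme2, the interferon-inducible cap, by −0.17 (SE 0.18) and −0.03 (SE 0.24), and the nuclear activator Psme3 by 0.08 (SE 0.14). The inhibitor Psmf1 differed by 0.10 (SE 0.13), and Psmg1 to Psmg4, which pair alpha subunits into rings, by −0.11 to 0.08. All these groups overlapped.

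**Figure D3:**
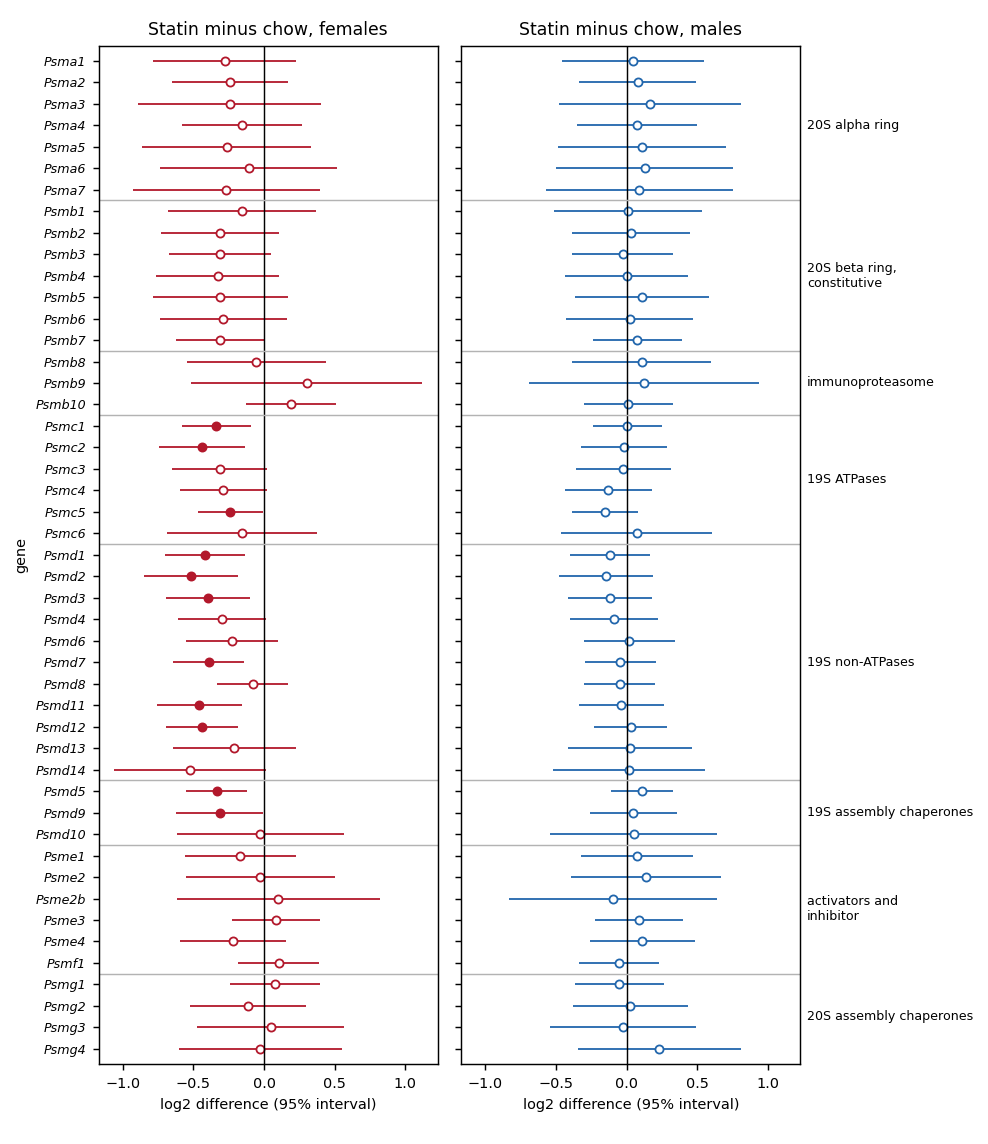
Points are the log2 difference of statin minus chow for each of the 47 genes, with lines for the 95% interval, in females (left) and males (right), and filled points mark an unadjusted p under 0.05. In females 40 genes lie below 0 and 11 are filled, and in males 17 lie below 0 and 0 are filled.

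In males, statin and chow livers overlapped for 44 of the 47 members, and neither the core nor the 19S particle had the lower medians seen in females. Of the 47, 0 passed an adjusted p of 0.05 in edgeR, as in DESeq2 and limma-voom, and 0 had an unadjusted p under 0.05, against 0.844% of all genes higher and 1.11% lower. The median log2 difference was 0.08 for the constitutive core and −0.04 for the 19S particle, and 30 members were higher and 17 lower. These directions rested on single livers. The core median was −0.04 with 38 members lower without male chow 3 and −0.07 with 36 lower without male statin 3, and it was 0.15 without male chow 1, 0.21 without male statin 1 and 0.02 without male statin 2. The 19S median was 0.03 without male chow 1 and −0.09 without male chow 3. Without male statin 1, Psmd2 and Psmd3 were lower at an unadjusted p under 0.05, against 3.36% of all genes lower in that fit. The livers did not overlap for 3 members, 1 higher and 2 lower, against 3.64% and 4.3% of all genes. Psmd5 measured 32.3, 33.2 and 31.7 CPM on chow and 34.9, 34.5 and 35.4 CPM on statin, a log2 difference of 0.11 (SE 0.10). Psmc5 measured 58.2, 55.7 and 56.4 CPM against 54.1, 51.5 and 47.4 CPM, a difference of −0.15 (SE 0.11), and the third was Psmf1 (−0.05, SE 0.13). Psmd2 measured 160, 172 and 167 CPM on chow and 185, 142 and 124 CPM on statin, a difference of −0.15 (SE 0.15). Here male statin 1 was the highest of all male livers and male statin 3 the lowest. Psme4 moved the same way, with 137, 138 and 147 CPM on chow and 194, 143 and 119 CPM on statin, a difference of 0.11 (SE 0.17). Psmg4 went the other way, with 5.62, 5.05 and 4.30 CPM on chow and 3.96, 5.86 and 7.73 CPM on statin, a difference of 0.23 (SE 0.27), and Psmc4 differed by −0.13 (SE 0.14). For Psmd12, with 64.6, 64.3 and 59.0 CPM on chow and 66.1, 63.9 and 61.6 CPM on statin, the difference was 0.03, with a 95% interval of −0.23 to 0.28.

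The difference between the sexes in the response to statin was tested as an interaction. No member passed an adjusted p of 0.05 in edgeR, DESeq2 or limma-voom, and 2 had an unadjusted p under 0.05 in edgeR, both lower, against 3.39% of all genes lower and 4.62% higher. Psmd5 gave an interaction of −0.44 (SE 0.14, edgeR adjusted p = 0.392) and Psmd12 one of −0.47 (SE 0.17, edgeR adjusted p = 0.470). The next lowest p was that of Psmc1, at −0.34 (SE 0.16), whose male livers measured 98.1, 96.7 and 86.2 CPM on chow and 91.9, 97.4 and 92.6 CPM on statin. All 31 genes of the core and the 19S particle had an interaction below 0, with medians of −0.33 and −0.29. The core median was −0.14 without female statin 2, −0.20 without male statin 3, −0.21 without female chow 2 and −0.54 without female statin 1, while the 19S median ran from −0.43 to −0.22 with 1 liver out. Without female statin 1, 10 members had an unadjusted p under 0.05, all lower, against 5.37% of all genes, and the count was 5 without male statin 3 and 4 without female chow 3 or male chow 1, against 2.68% to 3.17% of all genes lower in those fits. Of the 6 members with an interaction above 0, Psmb10 (0.18, SE 0.21), Psmf1 (0.16, SE 0.19) and Psmg1 (0.13, SE 0.21) had the smallest p.

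Immunoproteasome genes had no common direction in females, and whether they differed from the core in their response was not tested for the classes as such. Psmb8, which replaces Psmb5, measured 31.5, 37.6 and 43.2 CPM in chow females and 45.2, 34.5 and 28.3 CPM in statin females, a log2 difference of −0.06 (SE 0.23). Psmb9, which replaces Psmb6, measured 15.4, 17.9 and 24.1 CPM against 35.3, 16.6 and 18.9 CPM, a difference of 0.30 (SE 0.38) that rested on female statin 1 and was −0.10 without it. Psmb10, which replaces Psmb7, measured 33.4, 34.3 and 42.0 CPM against 45.0, 38.9 and 41.3 CPM, a difference of 0.19 (SE 0.15, edgeR adjusted p = 0.770). All 3 pairs of groups overlapped. In males the differences were 0.11 (Psmb8), 0.12 (Psmb9) and 0.01 (Psmb10), each smaller than its SE, with Psmb9 at 16.6, 26.8 and 13.8 CPM on chow and 10.6, 24.3 and 27.4 CPM on statin.

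Read ratios of each immunoproteasome gene to the subunit it replaces remove whatever scales both genes alike. Psmb10 to Psmb7 was 0.323, 0.277 and 0.374 in chow females and 0.407, 0.499 and 0.486 in statin females, without overlap. In males it was 0.246, 0.343 and 0.324 on chow and 0.264, 0.284 and 0.318 on statin, and the groups overlapped. A two-sided exact permutation test over livers gave p = 0.1 in females, the smallest that 3 against 3 allows, and p = 0.7 in males. The same exact test gave p = 0.3 for Psmb8 to Psmb5 and p = 0.2 for Psmb9 to Psmb6 in females and p = 1.0 for both in males, and over these 6 exact tests the lowest adjusted p was 0.6. These tests were added after the ratios had been seen. Of the leukocyte markers only 3 of 13 were above the filter, and the list summed to 18.8 to 24.9 CPM in chow females and 24.2 to 37.3 CPM in statin females, with 2 of the 3 at an unadjusted p under 0.05 (against 5.93% of all genes higher). These were the B cell gene Cd79b at 0.86 (SE 0.32, edgeR adjusted p = 0.350) and Ptprc (CD45) at 0.48 (SE 0.21, edgeR adjusted p = 0.432). Their part in the ratio was not tested. Psmb9 and Tap1 overlap on opposite strands, as do Psmb10 and Psmb8 with predicted genes.

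**Figure D4:**
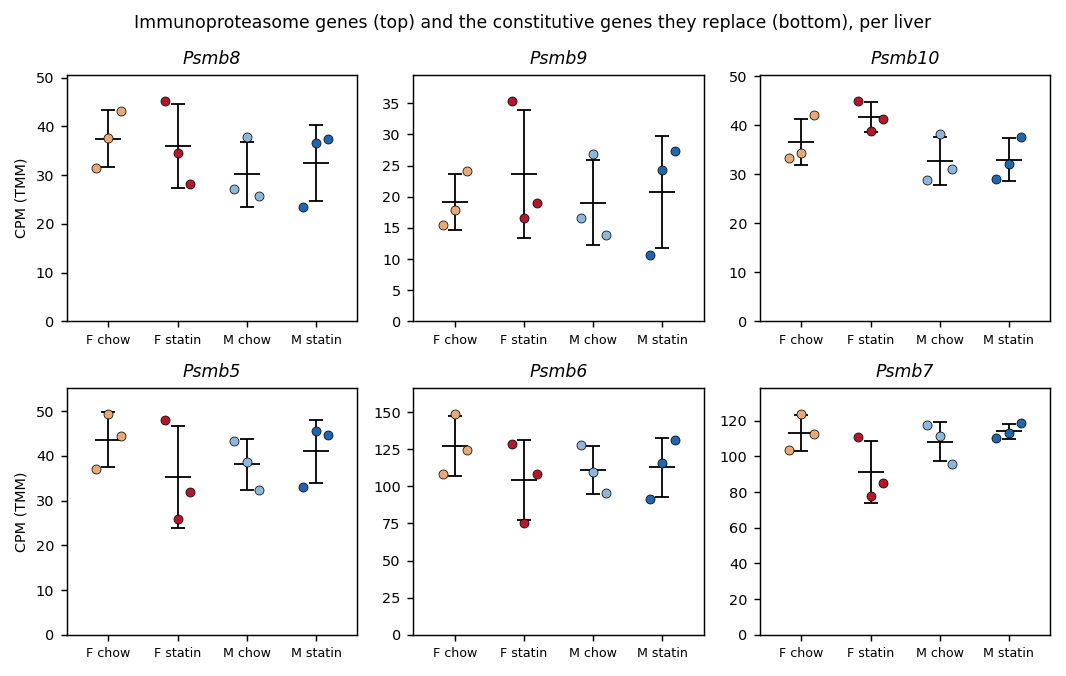
Panels plot TMM-scaled CPM per liver (points) with the group mean and SD (bars) for Psmb8, Psmb9 and Psmb10 (top row) and for Psmb5, Psmb6 and Psmb7 (bottom row). The highest Psmb9 value, 35.3 CPM, is female statin 1, and female statin 2 is the lowest liver for each of the bottom genes.

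Between the sexes on chow, no member passed an adjusted p of 0.05 in edgeR, although 1250 genes did (5.96% higher and 4.49% lower in females). Psmd5 came nearest. It was 0.32 higher in females on the log2 scale (SE 0.10, edgeR adjusted p = 0.0600), with each chow female above each chow male, and DESeq2 called it, against 8.99% of all genes higher and 7.27% lower. Psmd9 was 0.37 higher (SE 0.14, edgeR adjusted p = 0.120), and these 2 alone had an unadjusted p under 0.05, against 13.3% of all genes higher and 11.6% lower. The higher count was 1 without female chow 1, female chow 3 or male chow 2 (against 11.0% to 12.1% of all genes higher), and the lower count was 2 (Psme3 and Psmf1) without female chow 1, female statin 1 or female statin 2 and 1 (Psme3) without male statin 1 (against 10.6% to 13.8% lower). Chow males measured 47.9, 41.8 and 47.9 CPM of Psmd9, all below the chow females. Psmd1 followed at 0.22 (SE 0.13), with chow males at 93.3, 91.3 and 89.7 CPM. Toward lower values in females stood the inhibitor Psmf1, with 32.6, 22.8 and 29.0 CPM in chow females and 33.2, 35.3 and 33.6 CPM in chow males (−0.28, SE 0.13), and Psme3, with 44.4, 35.0 and 38.3 CPM in chow females and higher levels in each chow male (−0.30, SE 0.14). Neither overlapped, while Psmg3 (−0.23, SE 0.24) did. In all, 5 members were higher and 4 lower without overlap, against 18.5% and 19.1% of all genes, and with transcript length fitted in each liver and taken out 10 were higher and 6 lower, against 17.9% and 22.8%.

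On statin 38 of the 47 members were lower in females than in males, whereas on chow 39 were higher. Without female statin 2 only 23 were lower on statin, and the core median, −0.17 with all livers, was 0.03. None passed an adjusted p of 0.05 in edgeR, in which 751 genes did (4.38% higher and 1.9% lower). At an unadjusted p under 0.05, 5 members were lower and 1 higher, against 7.21% and 12.2% of all genes. The lower count was 9 without female statin 1, 2 without female statin 3, male statin 1 or male statin 2, and 3 without male chow 1 or male chow 2, against 8.46% of all genes lower without female statin 1 and 5.54% to 6.81% in the other fits. Psmd12 differed by −0.35 (SE 0.12, edgeR adjusted p = 0.114), Psme4 by −0.49 (SE 0.17), Psmc1 by −0.30 (SE 0.11), Psmb7 by −0.32 (SE 0.14) and Psmd11 by −0.30 (SE 0.14). Psmb10 was the one higher, at 0.34 (SE 0.15, edgeR adjusted p = 0.216), with 29.1, 32.2 and 37.7 CPM in statin males, all below the statin females, and was followed by Psme2b (0.43, SE 0.34) and Psmg1 (0.11, SE 0.15). Psmb10 no longer reached an unadjusted p of 0.05 without female chow 2, female statin 1, female statin 3, male statin 1 or male statin 2. Psmb9 and Psmb8 differed by 0.19 (SE 0.38) and 0.15 (SE 0.23). DESeq2 called Psmd12 and Psmc1 lower, against 3.78% of all genes lower and 6.95% higher, and limma-voom called 0 members in both comparisons of the sexes. These comparisons share their livers with those of the diets. Markers of other cells also differed by sex. Kupffer cell markers summed to 505 to 629.5 CPM in chow females and 281 to 452 CPM in chow males, and 2 of 7 on chow and 4 of 7 on statin passed in edgeR, all higher in females. On chow 2 of 5 stellate and 1 of 5 endothelial markers passed as higher in females, and 2 of 7 hepatocyte markers (Cyp2e1 at −1.36 and Apoa1 at −0.81) as lower. The other 5 hepatocyte markers were higher in chow females, with Cps1 highest at 0.67, and the median of the list was 0.24. On statin 2 of the 3 leukocyte markers above the filter (Ptprc at 1.06 and Cd79b at 1.39) passed as higher in females, where the list summed to 24.2 to 37.3 CPM, against 11.5 to 21.0 CPM in statin males. Their part in the members' values was not tested.

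Members varied together from liver to liver within groups. After each group's mean was removed, the median Pearson r over 12 livers was 0.97 between constitutive core genes (91 pairs), 0.69 within the 19S particle (136 pairs), 0.74 between core and 19S genes and 0.00 over all genes. All pairs share their libraries, and the contrast of short with long transcripts moved with them. The median deviation of the core from its mean over 12 livers was 0.27 in female statin 1, −0.57 in female statin 2, −0.30 in male statin 1 and 0.25 in male statin 3, in the order of the contrast. The 19S particle followed it less. In those livers its median deviations were −0.03, −0.44, 0.02 and 0.02. Female chow livers had 19S deviations of 0.09, 0.21 and 0.11 and female statin livers of −0.03, −0.44 and −0.14.

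**Figure D5:**
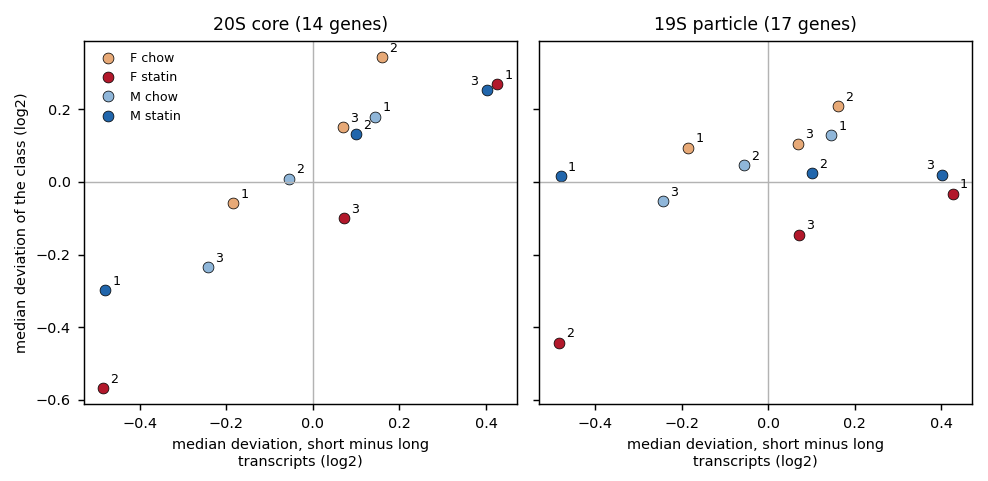
Each point is a liver (numbered within its group), with the median log2 deviation of the core (left, 14 genes) or the 19S particle (right, 17 genes) on the vertical axis and the contrast of short minus long transcripts on the horizontal axis. Core values climb with the contrast, from −0.57 in female statin 2, and in the 19S panel the 3 female statin livers are below the 3 female chow livers.

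Transcript length was then fitted in each liver and taken out. With this correction the median r was 0.70 within the core, 0.45 within the 19S particle and 0.33 between them, over the same 12 livers. In females the core median was −0.33 and the 19S median −0.36, 22 members were lower at an unadjusted p under 0.05, against 5.91% of all genes lower and 6.7% higher, and 0 passed the adjusted threshold (lowest edgeR adjusted p = 0.0806, Psmd12). The female groups did not overlap for 24 members, all lower on statin, against 7.19% of all genes lower and 6.63% higher. They included 15 of the 17 subunits of the 19S particle and 7 of the 14 core genes. Psmd12 differed by −0.46 and Psmd2 by −0.52 after the correction. In males no member reached an unadjusted p of 0.05 with it either, against 1.35% of all genes higher and 1.37% lower. In the interaction 12 members were lower at an unadjusted p under 0.05 with the correction, in place of 2, against 4.55% of all genes lower and 5.18% higher. Between the sexes on statin 14 were lower and 1 higher, in place of 5 and 1, against 12.4% and 11.8%, and 3 of them (Psmd12, Psmc1 and Psme4) passed an adjusted p of 0.05 in edgeR, against 3.6% of all genes lower and 4.9% higher. On chow 3 were higher and 2 lower, against 13.7% and 15.8%.

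Other parts of the system were read from lists. All 9 measured partners of the proteasome were lower in females on statin, 3 at an unadjusted p under 0.05 (against 4.56% of all genes lower) and 0 at the adjusted threshold. Usp14, a deubiquitinase that trims chains at the 19S particle, measured 43.4, 40.6 and 45.5 CPM on chow and 37.5, 31.3 and 32.6 CPM on statin, a log2 difference of −0.35 (SE 0.12, edgeR adjusted p = 0.280). Txnl1, a redox protein bound to the particle, differed by −0.61 (SE 0.21), and the ubiquitin receptor Adrm1, named after its value was seen, by −0.31 (SE 0.11). None of these 3 overlapped between diets, against 5.97% of all genes lower without overlap. In males 8 of the 9 were higher and 0 had an unadjusted p under 0.05.

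Transcription regulators of the proteasome had no common direction, with 5 of 10 lower in females. Nfe2l1 measured 160, 118 and 161 CPM in chow females and 132, 185 and 165 CPM in statin females, a log2 difference of 0.13 (SE 0.18), and Nfe2l2, its relative in the oxidative stress response, differed by −0.07 (SE 0.12). In males they differed by 0.04 (SE 0.18) and −0.13 (SE 0.12). Mafk, a small partner with which these factors bind DNA, measured 24.7, 25.6 and 27.0 CPM in chow females and 20.3, 17.2 and 11.5 CPM in statin females, a difference of −0.66 (SE 0.18, edgeR adjusted p = 0.192), without overlap. On chow it was higher in females than in males by 0.78 (SE 0.18, edgeR adjusted p = 0.0165), the one gene of these 4 lists that passed in any comparison. Vcp, the ATPase that draws Nfe2l1 out of the membrane, differed by −0.42 (SE 0.21) in females. Of 17 genes for ubiquitin and its delivery, 12 were lower in females and 0 had an unadjusted p under 0.05. Of 23 genes of interferon response and antigen presentation, 19 were higher in females and 0 had an unadjusted p under 0.05, with Irf1 at −0.29 (SE 0.14) and Nlrc5, an activator of MHC class I genes, at 0.27 (SE 0.16).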

How the data were processed

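Livers were grouped by the labels' sex and treatment. Per the labels and the study's methods, the authors made strand-specific poly(A) libraries, and the submitters' processing notes name STAR 2.4.1a, HTSeq and edgeR 3.28.1 with GRCm38. The deposited filtered table held whole-number counts per gene, not normalized, for genes above 1 CPM in at least 6 livers. The deposited CPM table gave the same reads scaled to the library total and was used for genes below the filter and library totals.

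Here, counts were TMM-scaled and fitted in edgeR 4.0.16 (quasi-likelihood, 4 groups, 12 livers, Benjamini-Hochberg over 11968 genes), with a call at an adjusted p under 0.05. An unadjusted p under 0.05 and non-overlap of 3 against 3 livers served as weaker rules. Nothing says more of the replicates than that they are separate mice. Transcript length was the median of basic coding transcripts in GENCODE vM21, removed per liver by loess where stated. Deviations used log2(CPM + 1). Alternatives were DESeq2 1.42.0, limma-voom 3.58.1, other scalings and filters, a replicate block, only the groups compared, the 10 highest genes left out, and each liver left out. The method was tested on simulated data. Genes named with values were the immunoproteasome genes and their partners, the 3 higher and 3 lower members of smallest p in each comparison, and, of other lists (proteasome partners, regulators, ubiquitin and delivery, interferon and antigen presentation, markers), those called or the 2 of smallest p. The regulators Nfe2l1 and Nfe2l2 were named in any case. Marker lists are given by sums and counts, and markers named beyond these rules were chosen after their values were seen. Other members named were chosen after their values were seen. Members and lists were chosen with earlier results of these data known.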

Additional observations from a re-analysis of the deposited data

How the results depend on the processing

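Of 327 recomputed counts and medians, 284 stayed within 1.5 times the reported count or within 0.200 (log2) of the reported median, the SD between livers of a group, and of 1218 recomputed differences of members named by rule 35 changed sign. Over all 47 members, leaving out 1 liver changed in at least 1 fit the sign of 16 female differences, 38 male differences and 9 interactions. The median of the 44 members other than the immunoproteasome kept its direction in females and in the interaction under every alternative run. With 1 liver out it ran from −0.41 to −0.10 in females, from −0.44 to −0.12 in the interaction and from −0.06 to 0.11 in males. All of these counted as within 0.200, so that count says little of how steady the medians were. Counts of calls moved. In females on statin against chow the 12 genes called became 148 with no filter, 5 with a stricter filter, 270 with DESeq2, 0 with only the groups compared and 23 with the length correction, and 0 to 75 when 1 liver was left out (75 without female statin 2, 62 without female statin 1), while the members called became 4 with DESeq2. In males DESeq2 called 4 genes. For the interaction the calls became 103 with no filter and 122 with DESeq2, and 0 to 14 with 1 liver out. Between the sexes on chow the 1250 genes became 771 with the stricter filter, 1946 with DESeq2 and 2151 with only the groups compared, and 635 to 1586 with 1 liver out, and the members called were 1 (Psmd5), 1 (Psmd5) and 2 (Psmd5 and Psmd9) under these 3 settings and 0 to 1 with 1 liver out (Psmd5 without female statin 1 or female statin 2). On statin the 751 genes became 357, 1284 and 292, and 378 to 743 with 1 liver out, and the members called were 2 with DESeq2, 3 with the length correction (Psmd12, Psmc1 and Psme4, with 1017 genes called) and 0 to 1 with 1 liver out (Psmd12 without female statin 1). Members with an unadjusted p under 0.05 also moved. In the interaction the 2 lower became 6 with DESeq2 (against 4.17% of all genes lower), 6 with its size factors (3.74%) and 4 with library size alone (3.97%). Between the sexes on statin the 5 lower became 9 with library size alone (12.9%), 3 with the stricter filter (6.64%) and 0 with only the groups compared (4.14%), and on chow the 2 higher became 4 with only the groups compared (17.1% of all genes higher) and 1 with no filter (8.23%) or library size alone (11.4%), which also gave 2 lower (Psme3 and Psmf1, 14.2% lower). Psmb10 on statin lost its unadjusted p under 0.05 with no filter, library size alone or only the groups compared. The cause was not tested. Replicate numbers did not pair the livers between diets within a sex (mean correlation of same-numbered deviations −0.27 in each sex). Across the sexes these means ran from −0.39 (female statin with male statin) to 0.29 (female chow with male statin). A replicate block gave 5 genes called in females and 0 members called in any comparison, and moved no other count by over 1.5 times.

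The sign changes among members named by rule were these. Between the sexes on chow Psmb9 was −0.038 with library size alone, −0.018 with no filter and −0.021 with the length correction, and in males Psmb10 was −0.0015 and Psmb6 −0.017 with the length correction. With 1 liver out, in females Psmf1 ran from −0.021 to 0.23, Psmb8 from −0.25 to 0.11 and Psmb9 from −0.10 to 0.51. In males Psmb10 ran from −0.10 to 0.14, Psmb9 from −0.13 to 0.45, Psmb6 from −0.10 to 0.15, Psmb7 from −0.0033 to 0.14, Psmb8 from −0.0092 to 0.30, Psme4 from −0.10 to 0.26 and Psmg4 from −0.022 to 0.45. The interaction of Psmb9 ran from −0.24 to 0.43. Between the sexes Psmb7 ran from −0.015 to 0.13 and Psmb9 from −0.20 to 0.33 on chow, and Psmb8 from −0.059 to 0.29, Psmb9 from −0.24 to 0.43 and Psmb6 from −0.31 to 0.052 on statin. With 3 livers a group, a member that was not called is not shown to be unchanged. The stated intervals give the range of an estimate and are no limit of detection, so differences outside them could also go undetected. Of the members given by liver, Psmg4 had 193 reads or more in each liver and the others 518 or more.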
